A study of Homo sapiens with 20 samples.

Results

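Aminoacyl-tRNA synthetases join each amino acid to its tRNA, the step that precedes every round of protein synthesis. The genes described here encode these enzymes together with the scaffold proteins that hold several of the cytosolic enzymes in 1 particle. They were chosen by name: protein-coding genes whose symbol is a letter followed by ARS1 or ARS2, and in addition EPRS1, FARSA, FARSB, AIMP1, AIMP2 and EEF1E1. The rule gave 40 of 19593 genes, of which 20 encode cytosolic enzymes, 17 mitochondrial enzymes and 3 scaffold proteins. Each gene was read through the transcript with the most reads over all libraries. In the T>C reads, 38 of the 40 passed the filter on low counts, 19 cytosolic, 16 mitochondrial and 3 scaffold.

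Human cells keep separate synthetase sets for the cytosol and for the mitochondrion, both encoded in the nucleus, and a few genes such as GARS1 and KARS1 serve both compartments. In the cytosol, several synthetases sit with AIMP1, AIMP2 and EEF1E1 (also called AIMP3 or p18) in the multi-synthetase complex, while the others work as free enzymes. The synthetases fall into class I and class II by the fold of their catalytic domain, and many cytosolic ones belong to the amino acid response driven by the transcription factor ATF4.

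The series profiled MM1.S, an established multiple myeloma (plasma cell tumour) line labelled as genotype WT, by SLAM-seq. In this assay 4-thiouridine (4sU) enters RNA made during labelling and, after alkylation, appears in the sequence as a T>C conversion, which marks a read of newly made RNA. Cells received dCBP-30, a bifunctional compound that directs the acetyltransferases CBP and p300 to degradation through CRBN, at 10 nM, or DMSO, for 2, 6 or 24 h, with 4sU added for the last 1 h. Each of these 6 groups had 3 libraries, and 2 further libraries, for which no treatment or time is labelled, had no 4sU. All libraries came from the same line, and nothing in the sources says whether replicates were independent cultures, so p-values measure the spread between these libraries, which may be technical.

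The libraries held between 12439665 and 18727385 reads on genes, and the genes described here took 0.194% to 0.224% of them. Every one of 8 plasma cell markers was at 99.1 reads in 1000000 (RPM) or more in each of the 9 DMSO libraries, with SDC1 at a median of 1410. Among markers of other cell types, CD3D, LYZ and EPCAM had 0 reads in the DMSO libraries, and the highest was CD3E with a median of 4.56 RPM. Without 4sU, 0.801% ± 0.0107 (SD, n = 2) of all reads carried T>C conversions. Over all genes, the ratio of counted conversions to T>C reads at 24 h was 1.47 ± 0.0431 with dCBP-30 and 2.48 ± 0.0255 with DMSO (SD, n = 3 each), against 2.17 ± 0.0528 and 2.20 ± 0.0241 at 2 h. Without 4sU it was 0.923 ± 0.0070 (SD, n = 2). That is under 1, so the ratio is not a strict count per read. The part of the library-wide difference between dCBP-30 and DMSO in the 24 h results was not tested.

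VARS1 and VARS2, the cytosolic and mitochondrial enzymes for valine, could not be described. VARS1 had 11 reads over all 20 libraries and VARS2 had 0. Both lie on chromosome 6, and between them (GRCh38, chr6:30914205-31795752) 43 of 50 protein-coding genes, or 86%, had under 100 reads over the 20 libraries. Among all 19571 protein-coding genes that share was 38.2%. The 2 counts are therefore given with no reading as to expression.

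Under DMSO the share of a gene's reads that carried T>C conversions after 1 h of labelling ranged over the 38 genes from 2.67% ± 1.39 for WARS1, the tryptophan enzyme, to 43.4% ± 12.3 for PARS2, the mitochondrial proline enzyme (SD, n = 9 libraries each). The 9 libraries were 3 from each time, so the SD also holds differences between times. Over all reads the DMSO share was 6.08% at 2 h and 8.31% at 24 h. The median was 6.24% for the cytosolic enzymes, 10.0% for the mitochondrial enzymes and 13.4% for the scaffold proteins, against 11.1% over all genes tested. The first 3 rest on each gene's mean over the 9 libraries, the last on reads pooled over them. The 3 highest genes all encoded mitochondrial enzymes, PARS2, MARS2 at 41.0% (from 23.9% to 61.5% over the 9 libraries) and NARS2 at 33.9% ± 10.7. The lowest 3 were WARS1, HARS1 at 3.34% ± 1.81 and QARS1 at 3.36% ± 0.878, all cytosolic. The neighbours in both of these trios differed by less than their spread over libraries and times. The shares also followed the number of T positions that a read covers, from 12.3 in CARS1 to 36.2 in MARS2, with a Spearman correlation of 0.585 across the 38 genes. That value is a description across genes of the same libraries. In the libraries without 4sU the share lay between 0% and 5.66%, with a median of 0.555%. The highest was RARS2, with 51 of 901 reads.

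**Figure D1:**
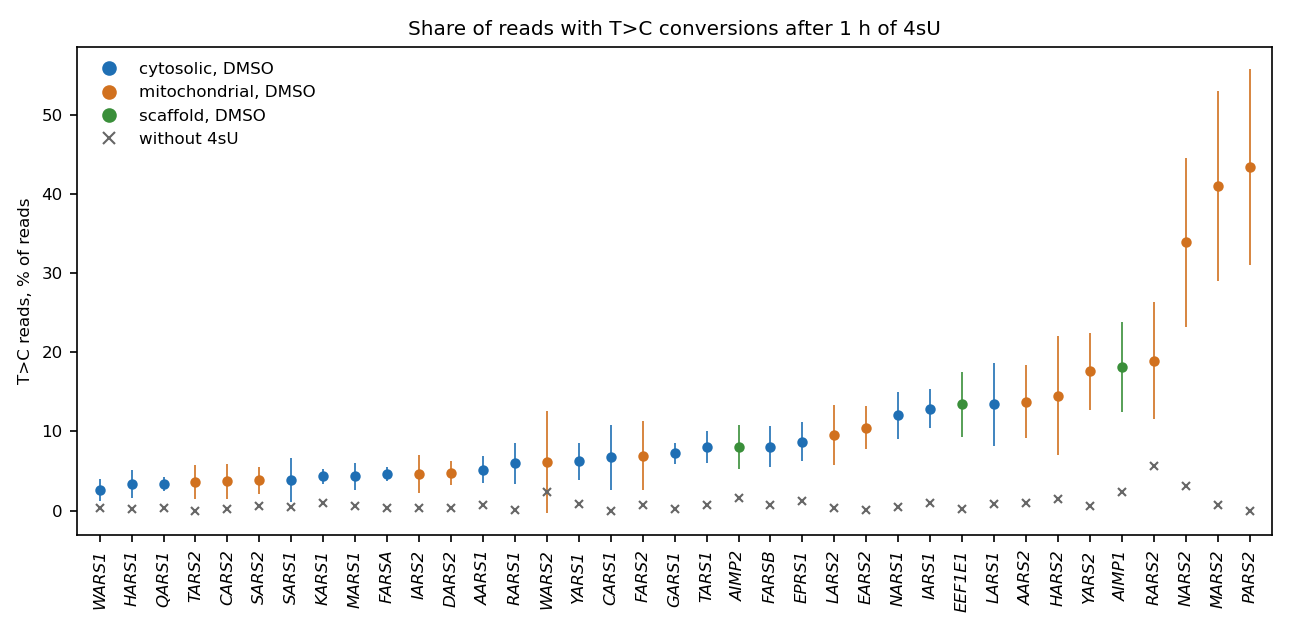
Share of reads with T>C conversions (y axis, % of a gene's reads) for 37 genes (x axis, ordered by the mean). Points are means over 9 DMSO libraries of all times with SD bars, crosses the reads of the 2 libraries without 4sU pooled. Most genes lie under 20%, and PARS2, MARS2 and NARS2 lie above 30%.

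In T>C reads, calls among these genes appeared at 6 and 24 h and were all decreases when scaled by total reads with TMM factors. A gene was called where edgeR's quasi-likelihood test gave an adjusted p under 0.05 over all genes tested and the change was over 2-fold. At 2 h, 0 of 38 genes were called lower and 0 higher in T>C reads, and the background over all 10083 genes tested was 7.14% lower and 1.66% higher. DESeq2 also called 0. By edgeR 1 gene, YARS2, had an unadjusted p under 0.05, as did 2167 of all 10083 genes. Its log2 fold change was 0.79 ± 0.36 (SE), with an edgeR adjusted p of 0.179. At 6 h, 12 of 38 genes, or 31.6%, were lower against 17.1% of all genes, and 0 were higher against 2.36%. At 24 h, 19 of 38, or 50%, were lower against 31.2% of all genes, and 0 were higher against 2.18%. In bulk libraries such as these, fewer cells of a kind and less RNA per cell cannot be told apart. For 2, 6 and 24 h in turn, the median log2 fold change of the 38 genes was 0.12, -0.84 and -1.16, beside 0.05, -0.27 and -0.69 over all genes.

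The level of these medians depends on the scaling, since the T>C reads of the whole library were also lower. They made up 8.31% ± 0.266 of all reads with DMSO and 6.38% ± 0.475 with dCBP-30 at 24 h (SD, n = 3 each). For the group described here the corresponding shares were 8.69% ± 0.313 and 5.65% ± 0.632. Scaled by each library's T>C reads in place of its total reads, the all-gene median at 24 h moved from -0.69 to -0.04. The calls over all genes then went from 3147 lower and 220 higher to 1517 lower and 759 higher, and those among the 38 genes from 19 lower and 0 higher to 11 lower and 1 higher, so that 28.9% of the 38 and 15.1% of all genes were lower. The gene then called higher was IARS2, the mitochondrial isoleucine enzyme. With total reads and no TMM factors the 38 genes gave 12 lower, or 31.6% beside 17.4% of all genes, and IARS2 higher. At 6 h the calls went from 1720 lower and 238 higher over all genes to 1183 and 517 when scaled by T>C reads, and from 12 to 9 lower among the 38, or 23.7% beside 11.8% of all genes.

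Summed over genes, the cytosolic enzymes gave 126 ± 5.10 T>C RPM with DMSO and 52.5 ± 5.72 with dCBP-30 at 24 h (SD, n = 3 each). The mitochondrial enzymes gave 61.0 ± 4.71 and 33.9 ± 2.74, and the scaffold proteins 11.04 ± 1.474 and 2.891 ± 1.497. In all 3 sums the distance between the group means was more than 3 times the larger SD. At 2 h the sums were 91.9 ± 3.87 and 94.8 ± 5.12 for the cytosolic enzymes, 43.0 ± 1.22 and 51.4 ± 3.58 for the mitochondrial enzymes and 10.7 ± 3.47 and 9.49 ± 2.51 for the scaffold proteins. In total reads at 24 h the 3 sums were 1731 ± 82.9 and 1165 ± 24.4, 463.8 ± 8.22 and 388.2 ± 7.86, and 88.5 ± 9.42 and 29.1 ± 1.91 RPM, in the same order. These values use the TMM factors. Before scaling, the mitochondrial enzymes held 7119, 7667 and 6523 of 16516641, 18727385 and 15445345 reads on genes with DMSO. With dCBP-30 they held 7016, 7232 and 7148 of 14090053, 13782643 and 14399776, a larger share in each library. The fall in this sum thus depended on the TMM factors. Without them the cytosolic shares overlapped between the groups, and the scaffold shares stayed lower.

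**Figure D2:**
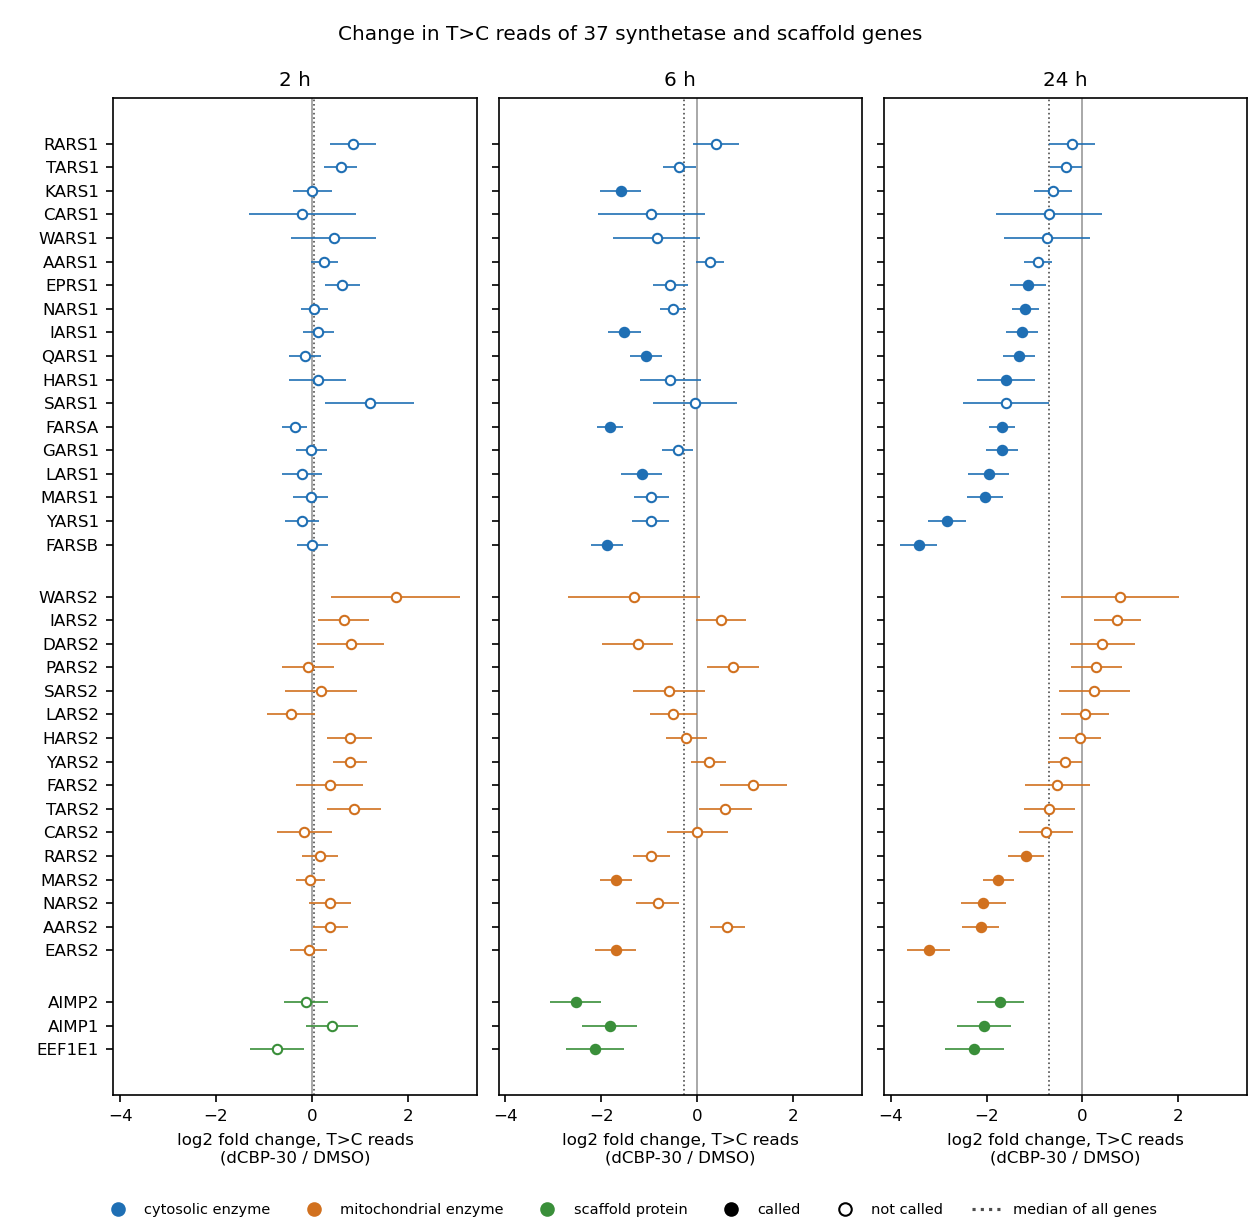
Log2 fold change of T>C reads with dCBP-30 against DMSO (x axis) for 37 genes (y axis, by class and by the 24 h value) at 2, 6 and 24 h. Bars are standard errors of the edgeR fit over 3 against 3 libraries, filled points are called genes, and the dotted line is the all-gene median. Filled points number 0 at 2 h, 11 at 6 h and 19 at 24 h, all left of 0.

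The 3 scaffold proteins were called lower at both 6 and 24 h. AIMP2, which organises the complex, had T>C RPM values of 7.77, 4.16 and 3.58 with DMSO and 4.66, 3.56 and 6.01 with dCBP-30 at 2 h. At 6 h its values were 6.09, 5.43 and 2.31 with DMSO and 0.599, 1.61 and 0.123 with dCBP-30, the last from 2 T>C reads. At 24 h they were 6.48, 3.70 and 5.58 with DMSO and 0.547, 1.32 and 2.90 with dCBP-30. The groups overlapped at 2 h and were apart at 6 and 24 h, with dCBP-30 lower. The log2 fold change was -0.12 ± 0.46 at 2 h, -2.53 ± 0.53 at 6 h (edgeR adjusted p = 0.00012) and -1.72 ± 0.49 at 24 h (edgeR adjusted p = 0.0034). It was -3.64 at 6 h without dCBP-30 replicate 2 and -2.48 at 24 h without dCBP-30 replicate 3. The 3′ UTR through which AIMP2 was counted overlaps EIF2AK1 on the opposite strand, whose T>C log2 fold change was -0.91 at 6 h and 0.06 at 24 h, neither past the test, and whether reads were assigned by strand is not given in the sources used here.

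AIMP1, the scaffold protein that binds the arginine and glutamine enzymes and is also a secreted cytokine precursor, was lower in the same way. Its T>C RPM values at 6 h were 1.27, 3.35 and 2.71 with DMSO and 0.659, 0.777 and 0.613 with dCBP-30. At 24 h they were 3.17, 3.16 and 3.70 with DMSO and 1.37, 0.330 and 0.697 with dCBP-30. The groups did not overlap at either time, whereas at 2 h they did, with 2.31, 2.26 and 1.12 for DMSO and 3.80, 1.58 and 2.25 for dCBP-30. Its log2 fold change with dCBP-30 was 0.41 ± 0.54 at 2 h, -1.83 ± 0.58 at 6 h (edgeR adjusted p = 0.013) and -2.05 ± 0.57 at 24 h (edgeR adjusted p = 0.0023), or -2.68 at 24 h without dCBP-30 replicate 1.

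EEF1E1, which ties the methionine enzyme to the complex and to elongation factor 1, had T>C RPM values of 4.46, 3.46 and 3.06 with DMSO and 1.90, 1.52 and 3.19 with dCBP-30 at 2 h. At 6 h the values were 3.47, 2.95 and 2.37 with DMSO and 0.719, 0.888 and 0.368 with dCBP-30. At 24 h they were 2.01, 2.50 and 2.83 with DMSO and 0, 0.494 and 1.02 with dCBP-30, from 0, 9 and 19 T>C reads. Only the 2 h groups overlapped. In log2 terms the change was -0.73 ± 0.56 at 2 h, -2.13 ± 0.60 at 6 h (edgeR adjusted p = 0.0049) and -2.25 ± 0.62 at 24 h (edgeR adjusted p = 0.0021), the last at -3.27 without dCBP-30 replicate 3 and -1.68 without dCBP-30 replicate 1. With reads summed over all its transcripts, EEF1E1 was at -1.10 at 6 h and no longer called. Scaled by T>C reads, AIMP1 was at -1.53 and -1.42 at 6 and 24 h and AIMP2 at -1.09 at 24 h, none of them past the test. With no TMM factors AIMP1 at 6 h (-1.51) and AIMP2 at 24 h (-1.20) did not pass either, and AIMP1 at 6 h was at -1.53 without DMSO replicate 2, also not past it. With the background of the unlabelled libraries subtracted, AIMP2 kept its size at 24 h, -1.72, and did not pass (edgeR adjusted p = 0.098).

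**Figure D3:**
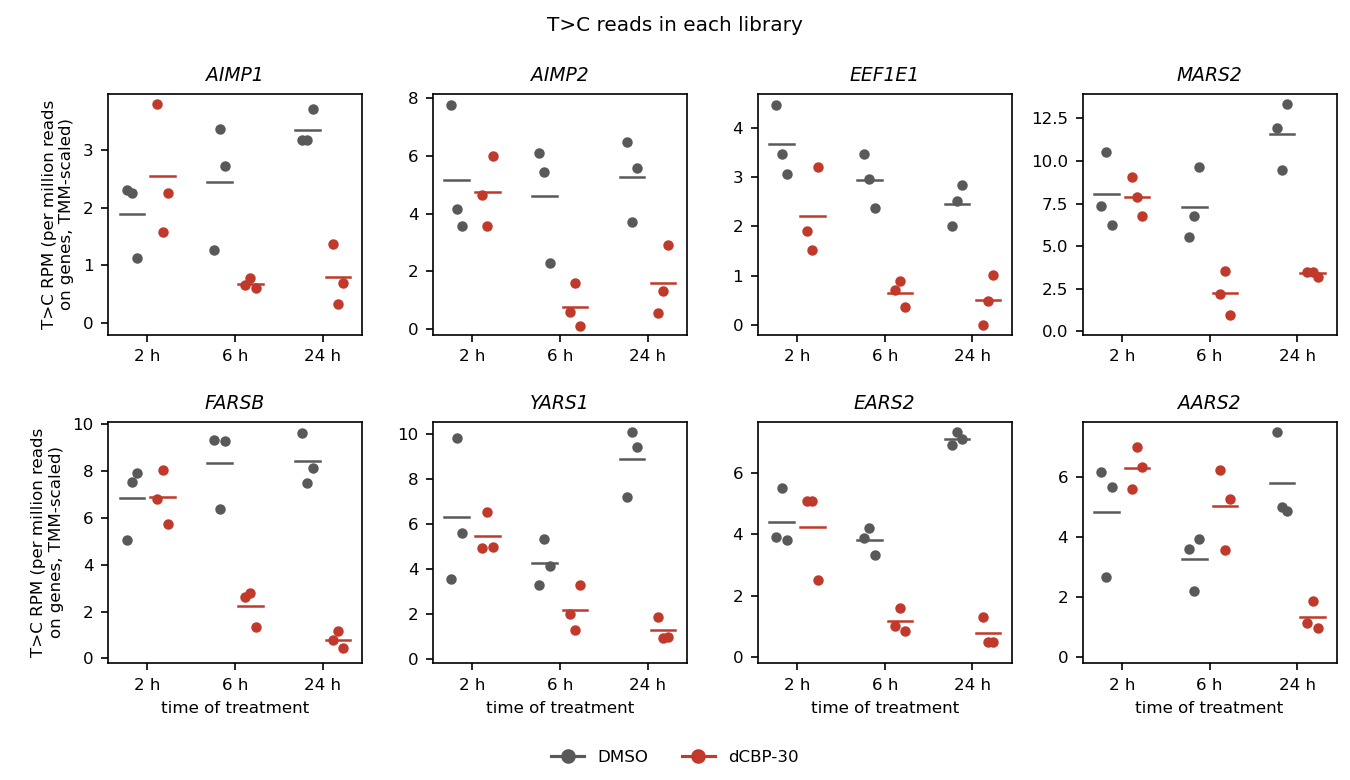
T>C RPM, the T>C reads in 1000000 reads on genes with TMM scaling (y axis), in each library at 2, 6 and 24 h (x axis) for 8 genes. Points are libraries, lines group means of 3, grey DMSO and red dCBP-30. All 8 genes were called lower at 24 h. In all 8 panels the 3 red points at 24 h lie below the 3 grey points, as they do for 45.8% of all genes tested.

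Of the 19 cytosolic enzymes tested, 7 were called lower at 6 h and 11 at 24 h, or 36.8% and 57.9%, beside 17.1% and 31.2% of all genes. With scaling by T>C reads 5 and 6 were called, beside 11.8% and 15.1% of all genes, and at 24 h EPRS1, HARS1, IARS1, NARS1 and QARS1 were no longer among them. The 6 h set included QARS1, LARS1, IARS1, KARS1 and both subunits of the phenylalanine enzyme, FARSA and FARSB. At 24 h KARS1 was among those no longer called, and NARS1, MARS1, YARS1, HARS1, GARS1 and EPRS1 had joined. AARS1, the alanine enzyme, passed the test at 24 h with a change under 2-fold, -0.93 ± 0.28 (edgeR adjusted p = 0.0063), and was at -0.28 and not past it when scaled by T>C reads. Of the other cytosolic enzymes at 24 h, RARS1 was at -0.22 ± 0.47, TARS1 at -0.35 ± 0.34, CARS1 at -0.70 ± 1.10, WARS1 at -0.74 ± 0.89 and SARS1 at -1.59 ± 0.91, none past the test. For 2, 6 and 24 h the median over the cytosolic enzymes was 0.01, -0.96 and -1.27, and with scaling by T>C reads it was -0.65 at 6 h and -0.61 at 24 h.

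Of the 12 genes called at 6 h, 8 belonged to the multi-synthetase complex. They were 8 of its 11 genes, scaffold proteins included, against 2 of 11 cytosolic enzymes outside it, FARSA and FARSB, with 17.1% of all genes lower. At 24 h the counts were 8 of 11 and 6 of 11, with 31.2% of all genes lower. Scaled by T>C reads they were 5 and 2 at 6 h, where AIMP1, LARS1 and QARS1 lost the call. At 24 h they were 3 and 4, which turned the order. Of all genes, 11.8% and 15.1% were then lower at 6 and 24 h. The complex genes not called at 6 h were EPRS1 at -0.56 ± 0.37, MARS1 at -0.96 ± 0.37 (edgeR adjusted p = 0.047, under 2-fold) and RARS1 at 0.40 ± 0.48. Outside the complex, GARS1 was at -0.40 ± 0.32, NARS1 at -0.51 ± 0.28, HARS1 at -0.56 ± 0.63 and YARS1 at -0.97 ± 0.38 at 6 h, none past the test, and all 4 were called at 24 h. These counts describe the 2 sets, and the difference between them was not tested. By catalytic class, 5 of 16 class I and 4 of 18 class II enzymes were lower at 6 h, and 8 of 16 and 7 of 18 at 24 h, with 17.1% and 31.2% of all genes lower at these times. Scaled by T>C reads they were 3 of 16 and 4 of 18 at 6 h, which turned the order. At 24 h they were then 5 of 16 and 5 of 18. EPRS1, which holds a domain of each class, is in neither.

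FARSB, the beta subunit of the phenylalanine enzyme, had the largest decrease of the 38 genes at 24 h. Its T>C RPM values were 5.08, 7.55 and 7.92 with DMSO and 6.81, 8.05 and 5.76 with dCBP-30 at 2 h. At 6 h they were 9.34, 6.37 and 9.29 with DMSO and 2.63, 2.78 and 1.35 with dCBP-30. At 24 h they were 9.65, 7.51 and 8.12 with DMSO and 0.766, 1.15 and 0.429 with dCBP-30. The groups overlapped at 2 h and were apart at 6 and 24 h. The log2 fold change went from 0.00 ± 0.32 at 2 h to -1.88 ± 0.34 at 6 h (edgeR adjusted p = 1.1e-05) and -3.42 ± 0.38 at 24 h (edgeR adjusted p = 3.1e-11). FARSA, the alpha subunit of the same enzyme, had values of -0.36 ± 0.26, -1.82 ± 0.27 and -1.68 ± 0.27 at the 3 times, the last 2 called.

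YARS1, the tyrosine enzyme, had the next largest decrease after FARSB among the cytosolic enzymes at 24 h. Its T>C RPM values were 7.19, 10.1 and 9.43 with DMSO and 1.86, 0.934 and 0.966 with dCBP-30 at 24 h, with no overlap. At 2 h the DMSO libraries held 3.54, 9.80 and 5.60 and the dCBP-30 libraries 4.92, 6.53 and 4.94, which overlapped. At 6 h they held 3.26, 5.30 and 4.14 against 1.98, 1.28 and 3.25, where the highest dCBP-30 library came close to the lowest DMSO library. These gave log2 fold changes of -0.21 ± 0.36, -0.97 ± 0.38 and -2.82 ± 0.40 at 2, 6 and 24 h, the last with an edgeR adjusted p of 2.7e-08. KARS1, the lysine enzyme, was at -1.60 ± 0.42 at 6 h and -0.62 ± 0.40 at 24 h, and this difference of 0.98 ± 0.58 did not pass the test (edgeR adjusted p = 0.30).

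Of the 16 mitochondrial enzymes tested, 2 were lower at 6 h, MARS2 and EARS2, and 5 at 24 h, with RARS2, AARS2 and NARS2 added. These were 12.5% and 31.2%, beside 17.1% and 31.2% of all genes, so the mitochondrial set had no higher share than all genes under this scaling. Scaled by T>C reads the shares were 12.5% and 25%, beside 11.8% and 15.1% of all genes. With no TMM factors they were 12.5% and 25%, beside 11.6% and 17.4%. RARS2 lost its call at 24 h in both, at -0.55 (edgeR adjusted p = 0.28) and -0.66 (edgeR adjusted p = 0.20). Their median log2 fold change started at 0.37 for 2 h and was -0.36 and -0.45 for 6 and 24 h, but it was -0.04 and 0.19 at 6 and 24 h with scaling by T>C reads, -0.05 and 0.07 with no TMM factors, and 0.13 at 6 h without DMSO replicate 1, so its direction was not settled. The 11 mitochondrial enzymes not called at 24 h ranged from -0.76 ± 0.57 for CARS2, the cysteine enzyme, to 0.79 ± 1.23 for WARS2, the tryptophan enzyme. At 24 h 6 of the 16 had every dCBP-30 library below every DMSO library, against 14 of 19 cytosolic enzymes, 3 of 3 scaffold proteins and 45.8% of all genes.

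EARS2, the mitochondrial glutamate enzyme, had the largest decrease among them. Its T>C RPM values at 24 h were 6.93, 7.33 and 7.11 with DMSO and 1.31, 0.494 and 0.483 with dCBP-30. At 6 h they were 3.89, 4.22 and 3.32 with DMSO and 1.02, 1.61 and 0.858 with dCBP-30, and at 2 h 3.92, 5.50 and 3.81 with DMSO and 5.09, 5.08 and 2.50 with dCBP-30. The groups overlapped at 2 h alone. The log2 fold change was -0.07 ± 0.39 at 2 h, -1.70 ± 0.42 at 6 h (edgeR adjusted p = 0.0013) and -3.21 ± 0.44 at 24 h (edgeR adjusted p = 1.4e-08), or -3.84 without dCBP-30 replicate 1. MARS2, the mitochondrial methionine enzyme, was at -0.03 ± 0.31, -1.69 ± 0.33 and -1.76 ± 0.32.

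AARS2, the mitochondrial alanine enzyme, is given in every library at 6 and 24 h because of its course, and was chosen after its values were seen. Its T>C RPM values were 3.61, 2.21 and 3.93 with DMSO and 6.23, 3.55 and 5.27 with dCBP-30 at 6 h, and 7.51, 5.01 and 4.86 with DMSO and 1.15, 1.87 and 0.966 with dCBP-30 at 24 h. The 6 h groups overlapped, with 2 dCBP-30 libraries above all DMSO libraries, and at 24 h all dCBP-30 libraries were below. On the log2 scale the change was 0.39 ± 0.36 at 2 h, 0.62 ± 0.37 at 6 h (edgeR adjusted p = 0.24) and -2.12 ± 0.39 at 24 h (edgeR adjusted p = 7.6e-06). The difference of -2.74 ± 0.53 between 6 and 24 h was the largest of the 5 that passed the test (edgeR interaction, adjusted p = 0.00012).

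For 16 pairings of a cytosolic with a mitochondrial gene for the same amino acid, the cytosolic gene had the lower T>C log2 fold change in 10 at each of 2, 6 and 24 h. The count was thus the same at 2 h, when no gene of the group was called. FARS2 enters with both FARSA and FARSB, and EPRS1 with both EARS2 and PARS2, so the pairings are not all separate. At 24 h the widest gap was phenylalanine, with FARSB at -3.42 ± 0.38 and FARS2 at -0.53 ± 0.68. Tyrosine came next, with YARS1 at -2.82 ± 0.40 and YARS2 at -0.37 ± 0.36. LARS1 was at -1.95 ± 0.43 and LARS2 at 0.05 ± 0.49, and IARS1 was at -1.27 ± 0.33 and IARS2 at 0.73 ± 0.50. In these 4 pairings the standard errors of the cytosolic and mitochondrial values did not overlap.

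The reverse order held for 6 pairings at 24 h. Glutamate had EPRS1 at -1.14 ± 0.37 and EARS2 at -3.21 ± 0.44, and alanine had AARS1 at -0.93 ± 0.28 and AARS2 at -2.12 ± 0.39. Asparagine had NARS1 at -1.19 ± 0.28 and NARS2 at -2.06 ± 0.47, and arginine had RARS1 at -0.22 ± 0.47 and RARS2 at -1.18 ± 0.38. For cysteine and threonine the 2 genes differed by less than the sum of their standard errors, as they did for methionine and tryptophan, where the cytosolic gene was the lower. A difference between genes of a pairing was not tested, since the fit compares libraries gene by gene.

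**Figure D4:**
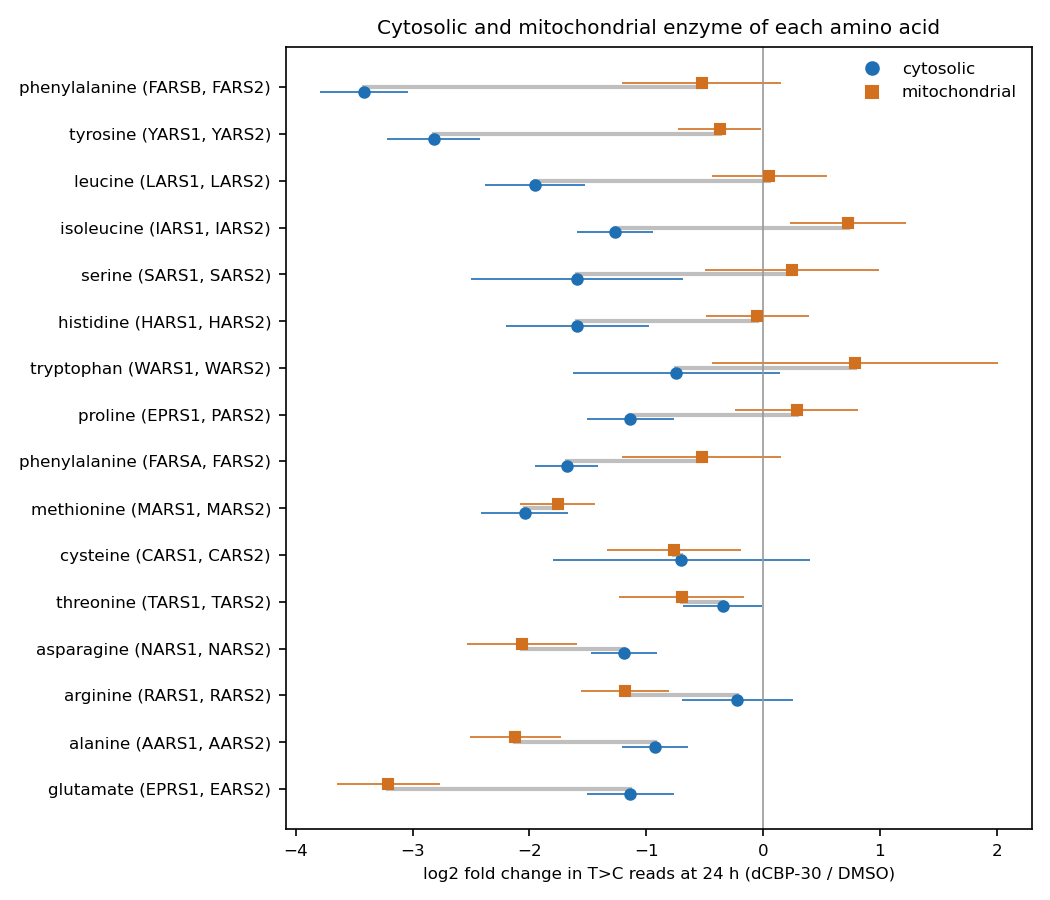
Log2 fold change of T>C reads at 24 h (x axis) for the cytosolic (blue circles) and mitochondrial (orange squares) gene of each amino acid (y axis), ordered by the gap between them. Bars are standard errors over 3 against 3 libraries. The circle lies to the left in 10 of 16 pairings, with the widest gap for FARSB and FARS2, and to the right in 6, with the widest gap for EPRS1 and EARS2.

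HARS1 and HARS2, the cytosolic and mitochondrial histidine enzymes, are neighbours on chromosome 5 that are read in opposite directions, and their promoter windows share 184 bases. At 24 h the T>C RPM values of HARS1 were 3.30, 3.34 and 3.41 with DMSO and 1.15, 1.21 and 0.966 with dCBP-30. Those of HARS2 were 2.59, 3.28 and 3.77 with DMSO and 3.17, 2.86 and 3.27 with dCBP-30. The HARS1 groups were apart and the HARS2 groups overlapped. HARS1 had a log2 fold change of -1.59 ± 0.61 (edgeR adjusted p = 0.031) and HARS2 one of -0.05 ± 0.44 (edgeR adjusted p = 0.95). The HARS1 call was lost when scaled by T>C reads, at -0.94 (edgeR adjusted p = 0.26), and with no TMM factors, at -1.07 (edgeR adjusted p = 0.19).

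Promoter windows of 300 bases, from 250 before to 50 after the start of transcription, were found in RefSeq for 33 of the 40 genes, as 45 windows because some genes have several starts (GRCh38.p14). They were searched on both strands for CACGTG, the E-box read by MYC, MAX and related factors, and for TGATGNAA, the composite C/EBP-ATF element read by ATF4. The E-box was present in 6 of the 45 windows, or 13.3%, which hold 5 sites because 2 windows of EARS2 share one, and in 7.26% of all 35116 promoters and 9.71% of those of genes tested in T>C reads. The C/EBP-ATF element was present in 8 windows, or 17.8%, against 3.62% and 1.88%. Only IARS1 held both motifs, and there they lie apart, at -186 and -13 from the start.

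The E-box windows belonged to AIMP2, EARS2, MARS2, IARS1 and CARS2, and of these 5 genes 4 were called lower in T>C reads at both 6 and 24 h, all but CARS2, where 17.1% and 31.2% of all genes were. Scaled by T>C reads, AIMP2 and IARS1 were not called at 24 h, which left 2 of 5, beside 15.1% of all genes. Of the 28 other genes with a window, 6 were lower at 6 h and 12 at 24 h. The windows of AIMP2, EARS2 and MARS2 are shown because these genes were lower at both times. Capitals mark the E-box, whose first base lies at -75 in AIMP2, -15 in EARS2 and -11 in MARS2 from the start. AIMP2 and CARS2 each have another window without it, and in the other window of EARS2 it lies at 11. The other AIMP2 window, chr7:6009022-6009321, lies upstream, so the E-box shown lies downstream of that start.
AIMP2, chr7:6009315-6009614 (plus strand): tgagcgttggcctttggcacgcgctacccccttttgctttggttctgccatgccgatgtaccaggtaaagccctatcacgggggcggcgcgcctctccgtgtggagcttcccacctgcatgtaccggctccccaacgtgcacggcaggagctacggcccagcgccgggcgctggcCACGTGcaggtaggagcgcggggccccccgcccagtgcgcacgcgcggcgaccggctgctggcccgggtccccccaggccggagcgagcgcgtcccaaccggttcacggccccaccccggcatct
EARS2, chr16:23557301-23557600 (minus strand): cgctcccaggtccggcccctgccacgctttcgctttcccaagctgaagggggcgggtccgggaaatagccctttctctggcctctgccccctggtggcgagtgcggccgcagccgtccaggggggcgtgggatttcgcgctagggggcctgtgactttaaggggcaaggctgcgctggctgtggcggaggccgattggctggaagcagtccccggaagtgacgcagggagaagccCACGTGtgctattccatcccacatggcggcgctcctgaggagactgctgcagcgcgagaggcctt
MARS2, chr2:197705119-197705418 (plus strand): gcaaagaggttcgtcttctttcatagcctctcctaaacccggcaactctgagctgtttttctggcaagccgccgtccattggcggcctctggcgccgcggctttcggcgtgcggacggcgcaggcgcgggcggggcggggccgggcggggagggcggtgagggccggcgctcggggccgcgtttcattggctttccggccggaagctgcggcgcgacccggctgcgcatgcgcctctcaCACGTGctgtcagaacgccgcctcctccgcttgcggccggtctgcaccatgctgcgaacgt

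The C/EBP-ATF element was found in AARS1, CARS1, GARS1, IARS1, MARS1, NARS1, TARS1 and YARS2. Of these 8 genes, 1 was lower at 6 h, IARS1, and 4 at 24 h, IARS1, GARS1, MARS1 and NARS1, beside 17.1% and 31.2% of all genes. IARS1 and NARS1 lost the call at 24 h when scaled by T>C reads, which left 2 of 8, beside 15.1% of all genes. Of the 25 other genes, 9 were lower at 6 h and 12 at 24 h. The windows of IARS1, which holds both motifs, MARS1 and AARS1 are shown as examples of genes that were lower at both times, at 24 h alone and at neither by over 2-fold. Capitals mark the E-box at -186 of IARS1 and the C/EBP-ATF element, which reads TTGCATCA on the strand shown, at -13 in IARS1, -4 in MARS1 and -187 in AARS1. A motif match is a description of letters, and binding was not measured in these libraries.
IARS1, chr9:92293648-92293947 (minus strand): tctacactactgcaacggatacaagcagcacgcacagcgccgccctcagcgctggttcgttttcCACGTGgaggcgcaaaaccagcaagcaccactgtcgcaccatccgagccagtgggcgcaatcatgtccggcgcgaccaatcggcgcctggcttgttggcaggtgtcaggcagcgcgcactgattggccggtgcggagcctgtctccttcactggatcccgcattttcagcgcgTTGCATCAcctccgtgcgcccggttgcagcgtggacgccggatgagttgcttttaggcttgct
MARS1, chr12:57487818-57488117 (plus strand): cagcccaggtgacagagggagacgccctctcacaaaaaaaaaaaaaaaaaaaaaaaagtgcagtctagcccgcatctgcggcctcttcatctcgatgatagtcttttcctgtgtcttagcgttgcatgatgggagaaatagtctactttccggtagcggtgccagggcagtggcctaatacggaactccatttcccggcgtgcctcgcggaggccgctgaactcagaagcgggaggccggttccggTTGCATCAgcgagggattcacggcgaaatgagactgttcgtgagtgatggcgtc
AARS1, chr16:70289457-70289756 (minus strand): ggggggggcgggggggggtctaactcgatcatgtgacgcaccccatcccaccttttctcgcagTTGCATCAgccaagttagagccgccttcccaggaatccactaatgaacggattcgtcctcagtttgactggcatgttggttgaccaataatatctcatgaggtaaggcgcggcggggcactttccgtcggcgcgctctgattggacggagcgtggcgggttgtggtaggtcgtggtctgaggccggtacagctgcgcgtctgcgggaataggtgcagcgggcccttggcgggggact

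Fewer of the genes were called in total reads, which include RNA made before labelling. At 2 h 0 of 38 genes were lower and 0 higher, where 1.25% and 0.457% of all 12267 genes tested were called. DESeq2 also called 0. By edgeR 4 of the 38 had an unadjusted p under 0.05, beside 2001 of the 12267. At 6 h 18 of the 38 had an unadjusted p under 0.05 by edgeR, beside 5922 of the 12267. Called lower at that time were 4, AIMP2, EARS2, FARSB and MARS2, against a background of 8.67%, and 0 were higher against 7.47%. At 24 h 8 were lower against 16.1%, those 4 with EEF1E1, FARSA, KARS1 and YARS1, and 1 was higher against 15%. Among the 12 genes called lower by T>C reads at 6 h, 9 also passed the test with lower total reads, 4 of them by over 2-fold. At 24 h this held for 17 of 19, with 7 over 2-fold. Of all 12267 genes, 2636 passed the test with lower total reads at 6 h and 3668 at 24 h. T>C reads are a part of total reads, so the 2 measures are not independent. With no TMM factors the all-gene median of total reads moved from 0.02 to 0.35 at 6 h and from 0.05 to 0.58 at 24 h. Over all genes the 6 h calls then went from 1064 lower and 916 higher to 731 and 1765, and the 24 h calls from 1972 lower and 1839 higher to 1061 and 3686. Among the 38 genes the 6 h calls became 0 lower with 2 higher, and those of 24 h became 4 lower with 2 higher. The 4 lower genes at 6 h were 2 without dCBP-30 replicate 3 of that time.

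FARSB had the largest fall in total reads, from 77.9, 91.8 and 102 RPM with DMSO to 14.3, 19.0 and 14.1 with dCBP-30 at 24 h. Its log2 fold change was -2.52 ± 0.17 (edgeR adjusted p = 6.0e-12). EEF1E1 held 12.5, 22.7 and 19.4 RPM with DMSO and 3.50, 5.38 and 4.18 with dCBP-30, a change of -2.06 ± 0.31 (edgeR adjusted p = 5.8e-06). EARS2 held 59.9, 50.8 and 53.9 RPM with DMSO and 16.0, 15.3 and 16.0 with dCBP-30, a change of -1.80 ± 0.14 (edgeR adjusted p = 4.9e-11). In all 3 genes the groups did not overlap at 24 h.

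The 1 gene with higher total reads at 24 h was PARS2, the mitochondrial proline enzyme. It held 3.95, 2.98 and 4.71 RPM with DMSO and 9.30, 11.4 and 9.01 RPM with dCBP-30, a log2 fold change of 1.35 ± 0.29 (edgeR adjusted p = 0.00035). At 2 h its total reads were 4.77, 5.01 and 3.29 RPM with DMSO and 8.02, 8.65 and 9.33 with dCBP-30, and at 6 h 2.76, 4.83 and 2.10 with DMSO and 5.99, 7.05 and 6.31 with dCBP-30. The groups were apart at every time. The changes were 0.99 ± 0.30 at 2 h (edgeR adjusted p = 0.057) and 1.00 ± 0.30 at 6 h (edgeR adjusted p = 0.010). The T>C reads of PARS2 passed the test at no time. At 2 h they had a log2 fold change of -0.09 ± 0.54, unlike its total reads. They made up 19.0% of its pooled reads with dCBP-30 and 41.2% with DMSO at that time. At 6 h they were 1.13, 1.47 and 1.02 RPM under DMSO and 2.34, 2.05 and 1.72 under dCBP-30, apart and higher like its total reads, with a log2 fold change of 0.75 ± 0.55 (edgeR adjusted p = 0.36). They were 1.75, 1.13 and 3.26 RPM under DMSO and 2.08, 3.30 and 2.09 under dCBP-30 at 24 h, which overlapped, and a log2 fold change of 0.29 ± 0.53 (edgeR adjusted p = 0.71).

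QARS1, the glutamine enzyme, had opposite signs in the 2 measures. Its T>C reads were lower at 24 h, at -1.32 ± 0.33 (edgeR adjusted p = 0.00093), but not past the test when scaled by T>C reads, at -0.69 (edgeR adjusted p = 0.11), or with no TMM factors, at -0.79 (edgeR adjusted p = 0.064), while its total reads rose by less than 2-fold, at 0.35 ± 0.10 (edgeR adjusted p = 0.0031). IARS2 had higher total reads at 24 h, 0.69 ± 0.18 (edgeR adjusted p = 0.0019), with T>C reads at 0.73 ± 0.50, not past the test. TARS2, the mitochondrial threonine enzyme, had higher total reads at 6 h, 0.80 ± 0.15 (edgeR adjusted p = 0.00014), and was at -0.14 ± 0.15 at 24 h. KARS1 had lower total reads at 24 h, -1.01 ± 0.14 (edgeR adjusted p = 1.2e-06), with T>C reads at -0.62 ± 0.40. Across the 38 genes the share of T>C reads under DMSO and the change in total reads at 24 h had a Pearson correlation of 0.069 and a Spearman correlation of -0.146, a description over genes of the same libraries.

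**Figure D5:**
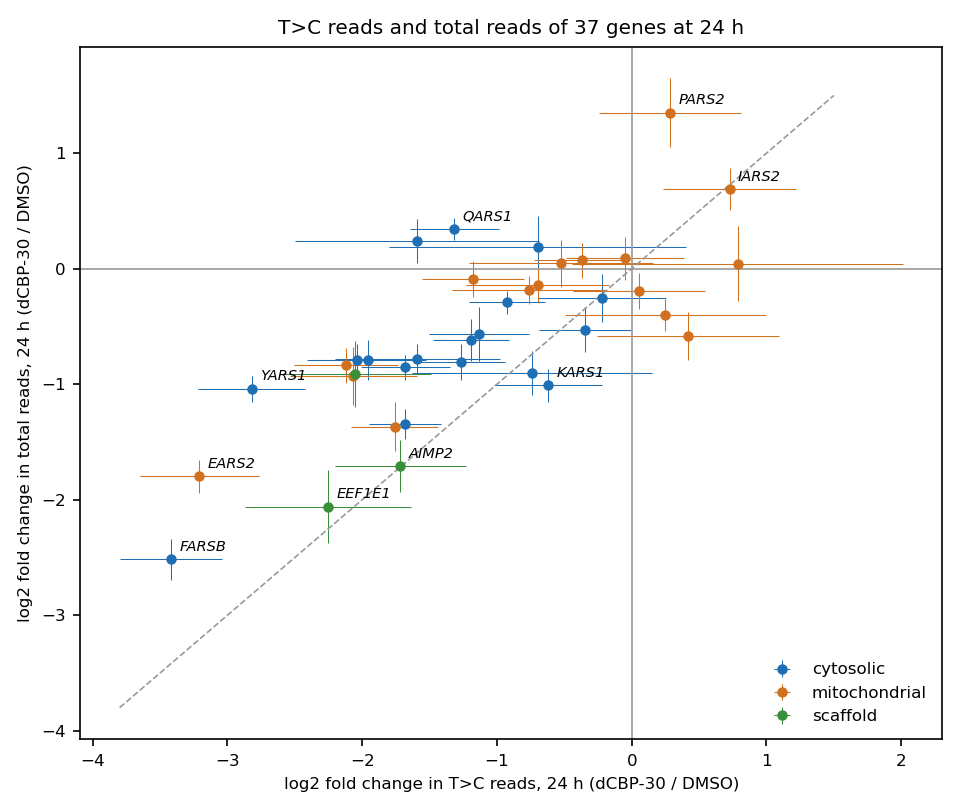
Log2 fold change at 24 h in T>C reads (x axis) and in total reads (y axis) of 37 genes, with standard errors and the line of equal change dashed. Blue marks cytosolic enzymes, orange mitochondrial enzymes and green scaffold proteins. FARSB and EARS2 lie lowest on the x axis at -3.42 and -3.21, and PARS2 lies alone at 1.35 on the y axis.

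Differences between times were tested as interactions, in which the 6 h and 24 h comparisons share the 2 h libraries. The change in T>C reads at 6 h differed from that at 2 h for 6 of 38 genes, all downward, where 8.03% of all genes passed, and 3 did so without DMSO replicate 3 at 6 h. At 24 h against 2 h it differed for 15, all downward, where 26% of all genes passed. At 24 h against 6 h it differed for 5, where 12.1% of all genes passed, and for 3 without DMSO replicate 1 at 24 h. Among the 5 were AARS1, AARS2, YARS1 and FARSB, which went downward. Scaled by T>C reads, 1 gene differed for 6 against 2 h, 5 for 24 against 2 h and 2 for 24 against 6 h. The shares of all genes under that scaling are not given here.

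Among partners of these enzymes, 9 of 14 tested genes that deliver or elongate charged tRNA in the cytosol were lower in T>C reads at 24 h, with 6 at 6 h and 1 at 2 h, and 0 were higher, where 31.2%, 17.1% and 7.14% of all genes were lower. EEF1B2 at -2.50 ± 0.28 and EIF5A at -2.29 ± 0.25 were lowest. Of 17 mitochondrial translation factors and tRNA partners tested, 6 were lower at 24 h and 1 at 6 h, or 35.3% and 5.88%, near and below those shares of all genes, with TRMU at -1.48 ± 0.56 and GTPBP3 at -1.44 ± 0.43 lowest among those called. The medians at 24 h were -1.56 and -0.98, beside -1.27 for the cytosolic and -0.45 for the mitochondrial synthetases. The list for the ATF4 response had 23 tested genes. It held genes of amino acid synthesis and transport, and also transcription factors and stress genes such as ATF3, ATF4, CEBPB and DDIT4. Of the 23, 3 were lower at 2 h, 11 at 6 h and 13 at 24 h, and 1, 1 and 2 were higher. Of all genes, 7.14%, 17.1% and 31.2% were lower at these times. The genes lower at 2 h were ATF3, DDIT4 and SLC38A2, and the higher one was SESN2. Those lower at 6 h included ATF3, ATF4, ATF5, CEBPB, CEBPG and DDIT4, beside MTHFD2, PYCR1, SLC1A5, SLC3A2 and SLC7A5. Scaled by T>C reads, the genes lower at 24 h numbered 6 of 14, 0 of 17 and 8 of 23 in these 3 lists. These were 42.9%, 0% and 34.8%, beside 15.1% of all genes under that scaling. Lowest at 24 h were SLC1A5, a glutamine transporter, at -2.89 ± 0.22 and PYCR1, of proline synthesis, which had 0, 0 and 3 T>C reads with dCBP-30 and 59, 100 and 93 with DMSO. PYCR1 also had 42 and 20 T>C reads in the libraries without 4sU, a background that labelling did not make. Highest were CHAC1 at 1.31 ± 0.39 and DDIT3 at 1.28 ± 0.53, both stress genes. DDIT3 overlaps the counted 3′ UTR of MARS1 on the opposite strand and moved the other way from it.

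Counting differed among these genes in ways that touch single values. For 17 of the 40 the transcript used has a 3′ UTR in several parts that run over further exons, and 34 of 40 had over 1 transcript in the files. Reads that map to several places were 20.1% of the reads of IARS1, 11.7% of GARS1 and 5.91% of YARS2, so the values of these 3 genes are uncertain where near copies share reads. SARS2 overlaps ENSG00000269547 on the same strand. Group means of T>C reads were as low as 2.33 reads at 2 h and 6 h, and for genes such as WARS2, with a standard error of 1.23 at 24 h, a 2-fold change was not detectable at this depth.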

How the data were processed

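The data were 20 SLAM-seq libraries of MM1.S, 18 with 4sU and 2 without. The authors trimmed reads with Trim Galore, mapped them with Slamdunk to hg38 3′ UTRs, removed multimapping reads and collapsed them per transcript. They deposited raw counts of reads and T>C reads, with CPM values and conversion fractions beside them. The deposited CPM values and the deposited fractions were not tested. The study added a Drosophila spike-in, which was not used here.

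Transcripts were matched to GENCODE release 44 (91.4% of 97466), and the one with the most reads stood for its gene. edgeR 4.0.16 in R 4.3.3 fitted its robust quasi-likelihood test to all genes passing filterByExpr (minimum count 10) with 1 mean per group over the 18 libraries, total reads with TMM factors as library sizes and Benjamini-Hochberg adjustment. RPM values use the same sizes. DESeq2 1.42.0 was an alternative, as were other scalings and filters, reads summed over transcripts, a replicate block and each library left out. The fit was tested on simulated data, and Python 3.11.15 made the counts. The genes and lists were chosen with earlier results of these data known. Values in every library are given for the 3 largest called changes in each direction per time in T>C reads (mean of at least 20 T>C reads), for those in total reads at 24 h, for the 2 largest differences between 24 and 2 h and for the scaffold proteins, except 1 gene that is not reported here; AARS2, HARS1 and HARS2 were added after their values were seen.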

Additional observations from a re-analysis of the deposited data

Results flagged for a closer look

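Scaled by total reads with TMM factors, the change in T>C reads with dCBP-30 differed between time points for the following log2 differences. The test was edgeR's interaction test, with an adjusted p under 0.05 over all genes. Scaled by T>C reads, 1 gene passed for 6 against 2 h, 5 for 24 against 2 h and 2 for 24 against 6 h. From 2 to 6 h the difference was -2.41 for AIMP2, -1.88 for FARSB, -1.66 for MARS2, -1.65 for IARS1 and -1.46 for FARSA.

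From 2 to 24 h it was -3.42 for FARSB, -3.14 for EARS2, -2.61 for YARS1, -2.51 for AARS2, -2.47 for AIMP1 and -2.44 for NARS2. It was -2.01 for MARS1, -1.77 for EPRS1, -1.75 for LARS1, -1.73 for MARS2 and -1.67 for GARS1. It was -1.39 for IARS1, -1.32 for FARSA, -1.24 for NARS1 and -1.19 for AARS1.

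From 6 to 24 h it was -2.74 for AARS2, -1.85 for YARS1, -1.54 for FARSB and -1.20 for AARS1. AARS1 was at 0.27 at 6 h and -0.93 at 24 h, and AARS2 at 0.62 and -2.12, so neither was lower at 6 h. The 2 sets of differences from 2 h share the 2 h libraries, and those from 6 h and from 2 h to 24 h share the 24 h libraries.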

How the results depend on the processing

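Scaled by T>C reads, the genes lower in T>C reads at 24 h numbered 11 and those higher 1, and with no TMM factors 12 and 1. Under these scalings 15.1% and 17.4% of all genes were lower. The cytosolic median was -0.65 (6 h) and -0.61 (24 h) when scaled by T>C reads and -0.64 (6 h) and -0.74 (24 h) with no TMM factors. The mitochondrial median was -0.0395 (6 h) and 0.19 (24 h) when scaled by T>C reads and -0.0472 (6 h) and 0.0739 (24 h) with no TMM factors. Genes that differed between times numbered 1 (6 against 2 h), 5 (24 against 2 h) and 2 (24 against 6 h) when scaled by T>C reads, and 8 (24 against 2 h) and 3 (24 against 6 h) with no TMM factors. Total reads with no TMM factors gave 1 higher gene at 2 h, for 6 h none of the 4 lower genes (0) but 2 higher, and for 24 h 4 lower genes beside 2 higher ones. DESeq2 called 1 gene higher in total reads at 6 h. With reads summed over transcripts, 1 was higher in total reads at 6 h, 2 differed between 6 and 2 h and 3 between 24 and 6 h, and the mitochondrial median at 2 h was 0.17. With the background of the unlabelled libraries subtracted, 3 differed between 24 and 6 h. With a mean of at least 20 reads the mitochondrial median was 0.0038 (6 h) and -0.70 (24 h). The causes of these shifts were not tested, other than that the scalings set a new zero for every gene.

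The replicate numbers did not pair the libraries, since same-numbered deviations correlated between -0.218 and 0.0522. With the replicate block, 0, 12 and 19 genes were lower in T>C reads at the 3 times, and 1 was higher in total reads at 6 h.

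Leaving out each library in turn gave 12 to 13 genes lower in T>C reads at 6 h, and 16 to 19 at 24 h. In total reads 2 to 6 were lower and 0 to 1 higher at 6 h, and 7 to 9 lower at 24 h. Between times 3 to 6, 13 to 18 and 3 to 5 differed. The cytosolic median ranged from -0.98 to -0.70 at 6 h and from -1.50 to -1.18 at 24 h. The mitochondrial median ranged from -0.43 to 0.13 at 6 h, the highest without DMSO replicate 1, and from -0.54 to -0.26 at 24 h, the highest without DMSO replicate 2. The low T>C reads of several mitochondrial genes limit these medians.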
